A study of Mus musculus with 4 samples.

Results

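Dio2, Gprc5b, Tst and Plxdc2 were followed over 4 arrays, each hybridized with RNA of 1 culture of mouse bone marrow-derived macrophages (BMDMs). They are 4 of the 21800 genes of the array that carry a RefSeq name, and they are measured by 6 of its 55681 non-control probes. The genes were chosen from these same arrays, as genes among those with the largest shared increase (Dio2, Gprc5b and Tst) or decrease (Plxdc2) relative to wild-type M2 cells when Lamtor1 was lost and when Torin1 was given. Their ratios in those comparisons describe the choice and carry no test, and every comparison with the M2 array shares that array with the choice.

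The cells came from 10-week-old mice of the C57BL/6J strain and were differentiated for 6 days with supernatant of L929 cells. Wild-type BMDMs were stimulated for 2 days with IL-4 at 50 ng/ml (M2), with IFNg at 20 ng/ml and LPS at 100 ng/ml (M1), or with the same IL-4 and 250 nM of the mTOR inhibitor Torin1. The Lamtor1-deficient BMDMs, whose genotype is labelled p18 (2400001E08Rik) -/-, received IL-4 at 50 ng/ml as the M2 cells did. The study made its mutant mice with floxed Lamtor1 alleles and a Cre transgene driven by the LysM promoter, which is active in myeloid cells, so deletion depends on the share of cells in which Cre acted. It reported complete deletion in BMDMs of these mice, examined before polarization. The study's littermate controls carried floxed alleles without Cre, and its sources do not say for the arrays by name whether the wild-type cells came from such mice. With 1 array in each group, no difference between groups could be set against the spread of replicates, and no p-value is given. Lamtor1-deficient and Torin1-treated cells together are called the perturbed groups.

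Lamtor1 holds the Ragulator complex on the lysosomal membrane, where mTORC1 is activated by amino acids, and Torin1 blocks the kinase of mTORC1 itself. The 4 genes belong to unrelated pathways. Dio2 encodes type 2 iodothyronine deiodinase, a selenoenzyme of the endoplasmic reticulum that converts thyroxine into the active thyroid hormone triiodothyronine inside the cell, and its transcription is known to respond to cAMP. Gprc5b encodes an orphan receptor of the family of G-protein-coupled receptors first recognized through genes induced by retinoic acid. Tst encodes the mitochondrial enzyme thiosulfate sulfurtransferase, also called rhodanese, which moves sulfur onto acceptors such as cyanide and takes part in the disposal of sulfide. Plxdc2 encodes a transmembrane protein related to tumour endothelial marker 7 and is described as a receptor for pigment epithelium-derived factor.

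The promoters of Dio2 and Gprc5b are shown because both genes were dim in M2 cells and bright in the other IL-4 cultures. They are the 250 bases before the start of each gene in the RefSeq table of GRCm38.p6, on the minus strand at chr12:90739039-90739288 for Dio2 and on the minus strand at chr7:118995212-118995461 for Gprc5b. The promoter sequences, from RefSeq, were matched for 2 of the 4 genes, and Tst and Plxdc2 are named only. Capitals mark a cAMP response element (TGACGTCA) and a TATA box (TATAAA) in Dio2, and GC boxes (GGGCGG) in Gprc5b.
Dio2: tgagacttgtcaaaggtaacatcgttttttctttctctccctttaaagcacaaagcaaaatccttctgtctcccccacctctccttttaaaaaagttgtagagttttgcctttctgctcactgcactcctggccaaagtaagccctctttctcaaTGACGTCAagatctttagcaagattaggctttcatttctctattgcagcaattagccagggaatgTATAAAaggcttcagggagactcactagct
Gprc5b: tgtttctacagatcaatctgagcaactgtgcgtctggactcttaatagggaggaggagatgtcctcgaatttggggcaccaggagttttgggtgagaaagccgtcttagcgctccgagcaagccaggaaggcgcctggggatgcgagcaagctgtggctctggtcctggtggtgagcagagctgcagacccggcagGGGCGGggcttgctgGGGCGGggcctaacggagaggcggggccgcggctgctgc

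Both strands were searched for 6 motifs in windows of this length before the starts of 27025 genes. The cAMP response element began 95 bases before the start of Dio2, and 1.55% of the 32851 windows held it. The TATA box of Dio2 began 30 bases before the start, and 12.4% of windows held one. Gprc5b held 2 GC boxes, at 54 and 39 bases before its start, and 32.7% of windows held at least 1. Neither window held an E-box (CACGTG, in 6.02% of windows), the FOXO motif searched (GTAAACA, 3.17%) or the STAT6 motif searched (TTC and GAA with 4 bases between, 5.85%). These matches describe the letters of the windows only.

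All 6 probes of the 4 genes were well above background on all 4 arrays, each by its 1 spot, and none was saturated. A probe counts as well above background where the scanner software marked its spot so. The values below are the processed signal of the scanner divided by the 75th percentile of that array, called the normalized signal, so that a signal of 1 equals that percentile. That percentile was 286.8 on the M1, 594.8 on the M2, 536.2 on the Lamtor1-deficient and 470.0 on the Torin1-treated array. The technical SD of a log2 ratio, taken from probes spotted at least 8 times, was 0.096 for Lamtor1-deficient over M2, 0.10 for Torin1-treated over M2 and 0.11 for M1 over M2. It covers spots of 1 array and 1 RNA, and holds no spread between cultures. In bulk RNA, fewer cells that express a gene and less RNA of it in each cell cannot be told apart.

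The labels were checked by the targeted gene. The 1 probe of Lamtor1, named 2400001E08Rik on the array, had a normalized signal ratio of 2.34% in Lamtor1-deficient cells relative to M2, and log2 ratios of 0.18 for Torin1-treated and −0.37 for M1 over M2. All 8 macrophage markers listed were well above background on every array, and 3 of them in Lamtor1-deficient and 2 in Torin1-treated cells were 2-fold lower than in M2. Of all genes, 8.34% in Lamtor1-deficient and 12.0% in Torin1-treated cells were 2-fold lower. Fcgr1, an Fc receptor gene, had log2 ratios of −4.96 and −4.61, and Adgre1, a macrophage surface receptor gene, of −2.57 and −2.81, in Lamtor1-deficient and Torin1-treated cells, while those of Csf1r were −0.44 and −0.27. Their summed normalized signal ranged from 474.9 (M1) to 799.2 (M2). The 5 neutrophil markers present on the array summed to 25.2 in M2 and to between 3.03 (M1) and 3.85 (Lamtor1-deficient) elsewhere, so they moved with Plxdc2, being highest in M2. The 6 fibroblast markers summed to 43.3 in M2 and 55.9 in Lamtor1-deficient cells, against 16.0 in M1 and 15.3 in Torin1-treated cells. The 5 adipocyte markers summed to 6.49 in Lamtor1-deficient cells, through Adipoq, and to at most 0.767 elsewhere. The 5 endothelial markers summed to between 10.3 (Torin1-treated) and 26.4 (M1), and the 6 lymphocyte markers to between 2.00 (Torin1-treated) and 4.11 (M1). Of these other lists, 4 fibroblast, 3 endothelial, 3 neutrophil, 2 lymphocyte and 0 adipocyte markers were well above background on all 4 arrays. Among defining markers, the T cell gene Cd3e, the endothelial genes Cdh5 and Kdr and the neutrophil gene S100a8 were well above it on all arrays, and the B cell gene Ms4a1, the endothelial gene Tek and the adipocyte gene Plin1 on none. What part the other cell types had in the levels of the 4 genes was not tested.

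**Figure D1:**
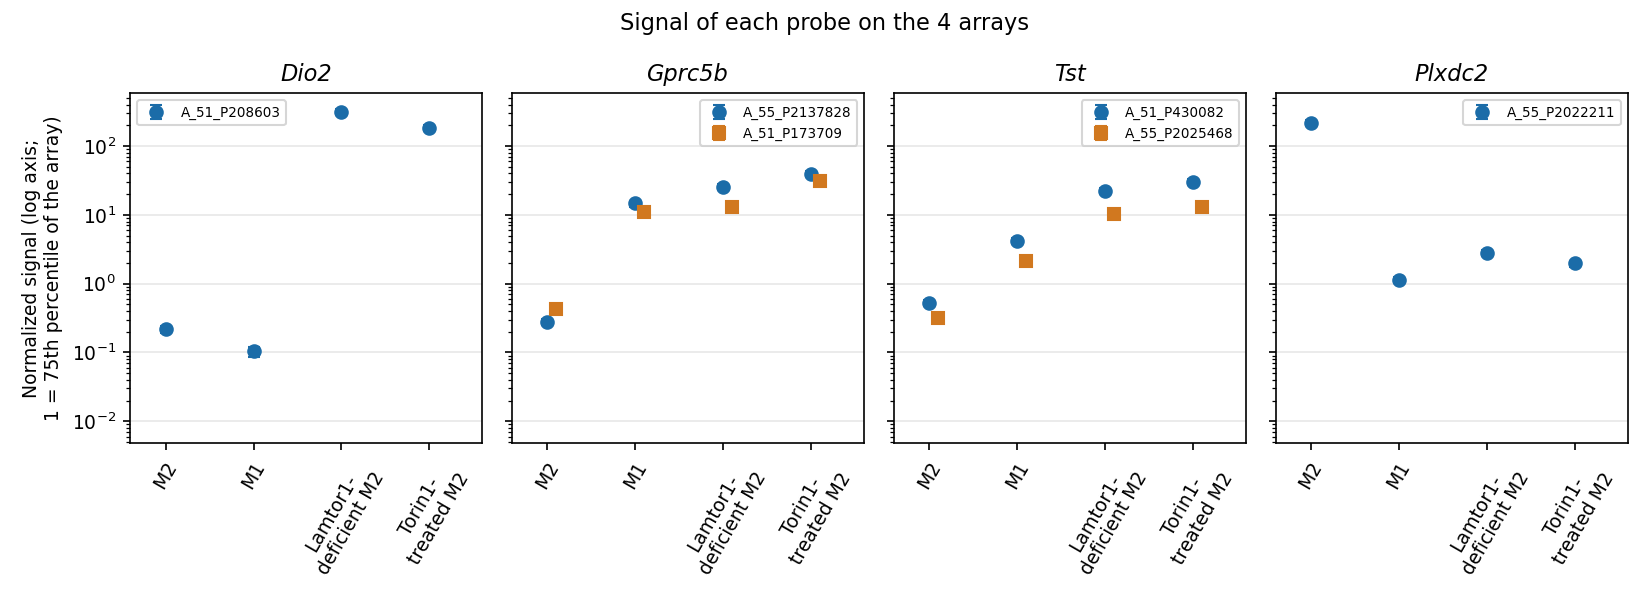
Normalized signal (log axis, where 1 is the 75th percentile of the array) of each probe of Dio2, Gprc5b, Tst and Plxdc2 on the 4 arrays. Points are single spots and bars are the scanner software's own error of the signal, mostly smaller than the point. Dio2 stands between 0.1035 and 0.2178 in M1 and M2 and at 185.0 or above in both perturbed groups, Gprc5b and Tst are lowest in M2, and Plxdc2 reaches 216.9 in M2 and at most 2.84 elsewhere.

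Dio2 was measured by probe A_51_P208603 (mm9 chr12:91963235-91963294, minus strand). Its processed signal was 129.5 ± 13.8 (scanner error, 1 spot) in M2, 29.67 ± 5.02 in M1, 165900 ± 16590 in Lamtor1-deficient and 86970 ± 8697 in Torin1-treated cells. The normalized signals were 0.2178 in M2, 0.1035 in M1, 309.4 in Lamtor1-deficient and 185.0 in Torin1-treated cells. The deiodinase transcript was thus a dim signal in both wild-type polarized states without inhibitor and lay far above the 75th percentile of the array in both perturbed states.

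The log2 ratio of Dio2 to M2 was 10.47 (scanner SE 0.211), or 1421-fold, in Lamtor1-deficient cells. In Torin1-treated cells it was 9.73 (scanner SE 0.211), or 849.8-fold. After normexp correction the log2 ratios were 9.87 and 9.11. No other of the 21800 genes, each taken by its brightest probe, had a larger increase in either comparison. The 1st to 99th percentile of all genes ran from −3.48 to 3.77 for Lamtor1-deficient and from −4.10 to 3.06 for Torin1-treated over M2. Dio2 was 1.67-fold lower in Torin1-treated than in Lamtor1-deficient cells, a log2 difference of −0.74 that exceeded 2 technical SDs (0.20).

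M1 cells were at the other end of the order for Dio2. The level in M1 was 2.10-fold lower than in M2, with a log2 ratio of −1.07 (scanner SE 0.289) beside a median of 0.684 over all genes. This difference depended on how background was removed, since it was −0.16 after normexp correction, and −1.89 with arrays shifted to their median. The M1 signal of 29.67 lay close to the lowest signal called well above background on that array, 18.8. Relative to M1, Dio2 was 2990-fold higher in Lamtor1-deficient and 1788-fold higher in Torin1-treated cells. On the log2 scale these were 11.55 and 10.80, but 10.03 and 9.27 after normexp correction and 12.43 and 11.38 with arrays shifted to their median. In those comparisons 5 and 3 genes, respectively, had a larger increase.

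Gprc5b was measured by 2 probes, the brighter of them A_55_P2137828 on mm9 chromosome 7 on the minus strand. On this probe its normalized signal was 0.2762 in M2, 14.6 in M1, 25.2 in Lamtor1-deficient and 39.2 in Torin1-treated cells. The receptor transcript was therefore lowest in M2 and highest after Torin1, with M1 on the side of the perturbed cells. The log2 ratio to M2 was 6.51 (91.3-fold) in Lamtor1-deficient, 7.15 (142.1-fold) in Torin1-treated and 5.73 (52.9-fold) in M1 cells, each with a scanner SE of 0.208. The last was 4.91 with arrays shifted to their median.

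The other Gprc5b probe, A_51_P173709, gave the same order with smaller ratios. Its normalized signals were 0.4309 in M2, 10.8 in M1, 12.9 in Lamtor1-deficient and 31.5 in Torin1-treated cells. The log2 ratios to M2 were 4.90, 6.19 and 4.65 for Lamtor1-deficient, Torin1-treated and M1 cells. On this probe M1 and Lamtor1-deficient cells were close, with a log2 difference of 0.25 against 2 technical SDs of 0.22 and a scanner SE of 0.204.

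The Gprc5b probes lie 1343 bases apart and differed by 1.61 in their log2 ratio of Lamtor1-deficient over M2. The median difference between the probes of 2644 genes with 2 probes was 0.172, but most of those genes differed little from M2, and the ratio of the brighter probe was one of the values that chose Gprc5b. For Torin1-treated over M2 the probes differed by 0.96, beside a median of 0.289 over such genes, and for M1 over M2 by 1.08, beside 0.486. For Torin1-treated over M1, without the M2 array, they differed by −0.12, beside a median size of 0.568. The last 30 bases of the probes are shown because this is where they differ in a known signal, the polyadenylation hexamer AATAAA, in capitals, which 10.1% of all probes hold.
A_55_P2137828: ctgagtgttttAATAAAtctgatatttctc
A_51_P173709: atgagagcccttggcaggtgctttattcat
The brighter probe, which holds the hexamer, is annotated to fewer transcripts of the gene than the other. Whether transcripts with different ends account for the difference between the probes was not tested.

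Tst was measured by 2 probes 154 bases apart on mm9 chromosome 15, on the minus strand. On the brighter, A_51_P430082, its normalized signal was 0.527 in M2, 4.19 in M1, 22.1 in Lamtor1-deficient and 30.4 in Torin1-treated cells. The sulfurtransferase transcript thus showed the order M2, M1, Lamtor1-deficient, Torin1-treated that Gprc5b showed, with M1 farther below the perturbed cells. The log2 ratio to M2 was 5.39 (41.9-fold) in Lamtor1-deficient, 5.85 (57.6-fold) in Torin1-treated and 2.99 (7.95-fold) in M1 cells, each with a scanner SE of 0.205, and the last was 2.17 with arrays shifted to their median.

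The other Tst probe, A_55_P2025468, had normalized signals of 0.3125 in M2, 2.12 in M1, 10.2 in Lamtor1-deficient and 12.9 in Torin1-treated cells. Its log2 ratios to M2 were 5.03, 5.37 and 2.76, so that the probes differed by 0.36, 0.48 and 0.23. The perturbed groups were the neighbours in order that stood closest. Torin1-treated cells exceeded Lamtor1-deficient cells by 0.46 on the brighter and by 0.34 on the other probe, above 2 technical SDs (0.20). The scanner SE was 0.204 on each probe, and the first of these differences was 0.15 with arrays shifted to their median.

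Plxdc2 was the gene with the opposite pattern. Its probe A_55_P2022211 (mm9 chr2:16673217-16673276, plus strand) had a normalized signal of 216.9 in M2, 1.13 in M1, 2.84 in Lamtor1-deficient and 1.96 in Torin1-treated cells. The transcript was bright in M2 alone, and stood within a factor of 2.50 among the other arrays. The widest of those differences, Lamtor1-deficient over M1, was 1.32 on the log2 scale, and 2.21 with arrays shifted to their median. The log2 ratio to M2 was −6.26 (76.5-fold lower) in Lamtor1-deficient, −6.79 (110.4-fold lower) in Torin1-treated and −7.58 (191.5-fold lower) in M1 cells, each with a scanner SE of 0.204 or 0.205, and the last was −8.40 with arrays shifted to their median.

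The order of Plxdc2 levels was M1, Torin1-treated, Lamtor1-deficient and M2 from the lowest up. Torin1-treated cells were 1.73-fold above M1, Lamtor1-deficient cells 1.44-fold above Torin1-treated cells, and M2 cells 76.5-fold above Lamtor1-deficient cells, steps that each exceeded 2 technical SDs. The neutrophil markers were also highest in M2. The genes nearest to Plxdc2 in profile were Il4i1, Lpl and Ear1, and S100a9, which is abundant in neutrophils, came after them.

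Taken by brightest probe, 3 of the 4 genes were at least 2-fold higher and 1 was at least 2-fold lower than in M2 in both perturbed groups, as the choice required. Of all genes, 8.96% were 2-fold higher and 8.34% lower in Lamtor1-deficient cells, and 13.6% were higher and 12.0% lower in Torin1-treated cells. In M1 over M2, Gprc5b and Tst were 2-fold higher, as were 29.8% of all genes, and Dio2 and Plxdc2 were 2-fold lower, as were 20.0%, though Dio2 was within 2-fold (−0.16) after normexp correction. None of the 4 genes differed 2-fold between Torin1-treated and Lamtor1-deficient cells by its brightest probe, in a comparison where 11.7% of genes were higher and 12.0% lower. With arrays shifted to their median, Dio2 passed 2-fold there, with a log2 difference of −1.05. The other Gprc5b probe was the exception, at 2.45-fold higher after Torin1. These comparisons share arrays, and their values are set side by side only.

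**Figure D2:**
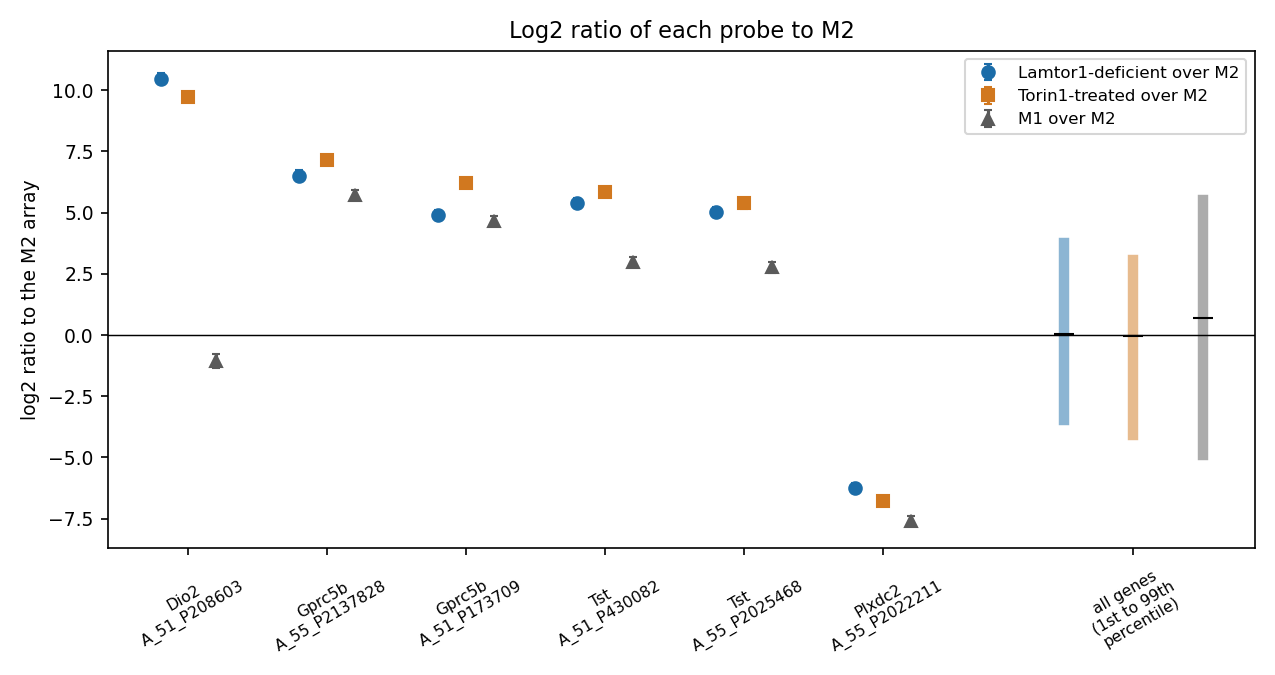
Log2 ratio to the M2 array of each probe of the 4 genes in Lamtor1-deficient (circles), Torin1-treated (squares) and M1 cells (triangles), with bars for the scanner software's error. Thick bars at the right span the 1st to the 99th percentile of all 21800 genes, with a dash at their median. The circles and squares of all 6 probes lie outside these ranges, and the M1 triangle of Dio2, at −1.07, is on the other side of 0 from its values in the perturbed groups.

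The genes stood at or near the ends of an order by the smaller of their ratios in Lamtor1-deficient and Torin1-treated over M2, over 13187 genes well above background on the arrays with IL-4. Among increases, that smaller log2 ratio was 9.73 for Dio2, 6.51 for Gprc5b and 5.39 for Tst. Cdkn1c, a cyclin-dependent kinase inhibitor, at 6.42 and Nos2, the inducible nitric oxide synthase, at 5.42 stood between them, and C430002N11Rik at 5.11 and Clec4e at 4.97 came next below Tst. Among decreases, Plxdc2 at −6.26 stood just below Ear2 at −6.31, with Ear1 at −6.39 at the head, and Fcrls at −5.98 was among the genes after it.

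Every other gene had a smaller increase than Dio2 in both perturbed groups, for which Dio2 was chosen. The other genes of thyroid hormone handling are therefore only described. Of 19 such genes on the array, 2 were 2-fold higher and 6 lower in Lamtor1-deficient cells, with a median log2 ratio of −0.08 beside 0.04 over all genes, or 1 and 3 after normexp correction. In Torin1-treated cells 3 were higher and 4 lower (median 0.04 beside −0.06), or 1 and 4 after normexp correction. In M1 cells 8 were higher and 5 lower (median 0.85 beside 0.68), or 4 and 5 with arrays shifted to their median. The shares of all genes that were higher and lower were 8.96% and 8.34% for Lamtor1-deficient, 13.6% and 12.0% for Torin1-treated, and 29.8% and 20.0% for M1 over M2. Dio1, the other activating deiodinase, had log2 ratios to M2 of 0.45 in Lamtor1-deficient, 0.43 in Torin1-treated and 1.58 in M1 cells. Dio3, which inactivates thyroid hormones, was well above background on the Lamtor1-deficient array only, at least 1.33-fold higher there than in M2.

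Among receptors, Thra, the thyroid hormone receptor alpha, had log2 ratios to M2 of −0.64 in Lamtor1-deficient, 0.71 in Torin1-treated and 0.85 in M1 cells. Thrb, the beta receptor, had a log2 ratio of −1.42 in Lamtor1-deficient cells and was at least 6.76-fold lower in Torin1-treated and at least 3.45-fold lower in M1 cells. Rxra, the shared partner receptor, had log2 ratios of 0.39, 1.37 and 4.38 for Lamtor1-deficient, Torin1-treated and M1. The receptor side of the pathway thus held values on both sides of M2.

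Hr, a corepressor and known target of thyroid hormone, was lower than in M2 in every other group. It was well above background in M2 and in Torin1-treated cells, with a log2 ratio of −5.25, and was at least 48.9-fold lower in Lamtor1-deficient and at least 33.6-fold lower in M1 cells. Klf9, another target of the hormone, had log2 ratios of 0.21 in Lamtor1-deficient, 0.04 in Torin1-treated and −3.06 in M1 cells. Thrsp was well above background on none of the 4 arrays.

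Carriers of thyroid hormones across membranes also differed among themselves. Slc7a8 had log2 ratios to M2 of −1.06 in Lamtor1-deficient, −2.33 in Torin1-treated and 2.89 in M1 cells. Slc16a10 had a log2 ratio of −1.26 in Lamtor1-deficient cells, and 0.24 and −0.06 in Torin1-treated and M1 cells. Slc3a2, which encodes the heavy chain shared by several amino acid carriers, had log2 ratios of 0.42, 1.00 and 2.22 in the order Lamtor1-deficient, Torin1-treated and M1. Crym, which encodes a protein that binds thyroid hormone in the cytosol, was well above background in Lamtor1-deficient cells alone, at least 5.28-fold higher than in M2.

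Genes needed to make the deiodinase, a selenoprotein, and genes that control its breakdown stayed within 2-fold in both perturbed groups, except that 1 gene of selenoprotein synthesis passed 2-fold after Torin1 with quantile normalization or with the percentile taken over probes well above background. Most genes of the array stayed within 2-fold too. Of all genes, 8.96% were higher and 8.34% lower in Lamtor1-deficient cells, and 13.6% and 12.0% in Torin1-treated cells. All 5 genes of selenoprotein synthesis had log2 ratios between −0.03 (Secisbp2) and 0.22 (Pstk) in Lamtor1-deficient cells, and between −0.67 (Pstk) and 0.98 (Eefsec) in Torin1-treated cells. In M1 cells 2 of them were lower, Sephs2 at −1.07 and Pstk at −1.57, as were 20.0% of all genes. That count was 5 with arrays shifted to their median and 1 after normexp correction. Of 4 genes of Dio2 protein turnover, Marchf6, a ubiquitin ligase gene, had log2 ratios of −0.62 in both perturbed groups and −2.12 in M1, and Wsb1, an adaptor of another ligase, had −0.39, 0.55 and 1.78 in Lamtor1-deficient, Torin1-treated and M1 cells. Protein levels of the deiodinase were not measured on these arrays.

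Genes known to respond to cAMP, whose element stands in the Dio2 window, were counted in the same way. Of 12 such genes, 2 were 2-fold higher and 5 lower in Lamtor1-deficient cells, with a median log2 ratio of −0.86 beside 0.04 over all genes, of which 8.96% were higher and 8.34% lower. In Torin1-treated cells 2 were higher and 5 lower, with a median of −0.15 beside −0.06, and of all genes 13.6% were higher and 12.0% lower. After normexp correction 1 was higher and 3 were lower in each of these groups. In M1 cells 7 were higher and 0 lower, with a median of 1.74 beside 0.68 for all genes, of which 29.8% were higher and 20.0% lower. Fos, a subunit of the AP-1 factor, had log2 ratios of −3.28, −2.62 and 1.34 for Lamtor1-deficient, Torin1-treated and M1 cells. Nr4a1, an orphan nuclear receptor, had −1.75, −1.44 and 2.14. Sik1, a kinase gene induced by cAMP, was higher in every group set against M2, at 1.45, 1.14 and 2.26. Whether cAMP had a part in the level of Dio2 was not tested.

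The other members of the Gprc5b family did not follow it. Gprc5c was lower than in M2 in all other groups, with log2 ratios of −4.77 in Lamtor1-deficient, −3.34 in Torin1-treated and −6.88 in M1 cells. Gprc5a had log2 ratios of 0.08, 0.06 and 0.67, and Gprc5d of 0.18, 0.81 and 1.07, in the same order. All of them were well above background on all 4 arrays, and Gprc5b was the family member with an increase of over 2-fold in both perturbed groups.

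Of 17 genes of the retinoic acid pathway, from which the family takes its older name, 2 were higher and 1 lower in Lamtor1-deficient cells, with a median of 0.04, and 0 were higher after normexp correction. In Torin1-treated cells 1 was higher and 5 lower (median −0.09), and in M1 cells 4 were higher and 7 lower (median −0.31). The lower counts were 2 in Torin1-treated and 4 in M1 cells after normexp correction. For all genes the shares higher and lower were 8.96% and 8.34%, 13.6% and 12.0%, and 29.8% and 20.0% in the same order of groups, with medians of 0.04, −0.06 and 0.68. Rarg, a retinoic acid receptor gene, was lower than in M2 throughout, at −1.73, −1.67 and −2.06 for Lamtor1-deficient, Torin1-treated and M1 cells. Rarb, the receptor gene best known as induced by retinoic acid, had a log2 ratio of 1.52 in Lamtor1-deficient cells and was at least 2.37-fold lower in Torin1-treated cells. Aldh1a2, which makes retinoic acid, had log2 ratios of −0.51, −3.10 and −2.68 in Lamtor1-deficient, Torin1-treated and M1 cells. Tgm2, a known target of the acid, had 0.68 in both perturbed groups and 1.95 in M1 cells.

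Tst had company in Mpst, which encodes the related mercaptopyruvate sulfurtransferase. Mpst was 2-fold or more above M2 in all other groups, with log2 ratios of 1.79 in Lamtor1-deficient, 3.46 in Torin1-treated and 2.16 in M1 cells. The rhodanese-domain genes Tstd1, Tstd2 and Tstd3 had log2 ratios of −0.90, −0.18 and −0.16 in Lamtor1-deficient cells and 0.71, −0.08 and −1.32 in Torin1-treated cells. The genes that act beside Tst in mitochondrial sulfide oxidation, Sqor and Ethe1, had log2 ratios of −0.71 and −0.16 in Lamtor1-deficient and −0.69 and −0.21 in Torin1-treated cells.

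Over all 15 other genes of sulfide and sulfur amino acid metabolism, 3 were 2-fold higher and 1 lower in Lamtor1-deficient cells, with a median of −0.05. In Torin1-treated cells 2 were higher and 4 lower (median −0.21), and in M1 cells 5 were higher and 3 lower (median 0.12), or 4 and 7 with arrays shifted to their median. Beside them stand 8.96% of all genes higher and 8.34% lower in Lamtor1-deficient cells (median 0.04), 13.6% and 12.0% in Torin1-treated cells (median −0.06), and 29.8% and 20.0% in M1 cells (median 0.68). Cdo1, cysteine dioxygenase, which commits cysteine to oxidation, was not well above background in M2 and was well above it on each other array. It was at least 82.2-fold higher in Lamtor1-deficient, at least 72.8-fold higher in Torin1-treated and at least 3.89-fold higher in M1 cells than in M2. Csad, which acts after Cdo1 on the way to taurine, was lower in all of them, at −1.21, −2.87 and −2.96. Txn1, thioredoxin, an acceptor of sulfur from Mpst, had log2 ratios of 2.06, 0.67 and 1.54 in Lamtor1-deficient, Torin1-treated and M1 cells.

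Plxdc1, the closest relative of Plxdc2, had log2 ratios of 1.01 in Lamtor1-deficient, −0.75 in Torin1-treated and −0.37 in M1 cells, against −6.26, −6.79 and −7.58 for Plxdc2. Serpinf1, which encodes pigment epithelium-derived factor, had log2 ratios of 0.25, −0.74 and −1.25. Of 10 other genes of tumour endothelial markers and PLXDC partners, 5 were 2-fold higher and 0 lower in Lamtor1-deficient cells, with a median of 0.82 beside 0.04 over all genes, a count that was 1 after normexp correction. In Torin1-treated cells 1 was higher and 3 lower (median −0.58), and in M1 cells 0 were higher and 4 lower (median −0.60), or 2 lower after normexp correction and 8 with arrays shifted to their median. All genes gave 8.96% higher and 8.34% lower in Lamtor1-deficient cells, 13.6% and 12.0% in Torin1-treated cells (median −0.06) and 29.8% and 20.0% in M1 cells (median 0.68). Cd276, an immune checkpoint molecule, was the gene of the list that was 2-fold higher in both perturbed groups, at 3.17 and 1.11, but no gene of the list was 2-fold higher after Torin1 with the shift to the median, quantile normalization or normexp correction. The fibroblast markers, several of which are collagens of the same stroma, had a summed signal above that of M2 (43.3) in Lamtor1-deficient cells, at 55.9, and below it after Torin1, at 15.3, and their part in these counts was not tested.

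**Figure D3:**
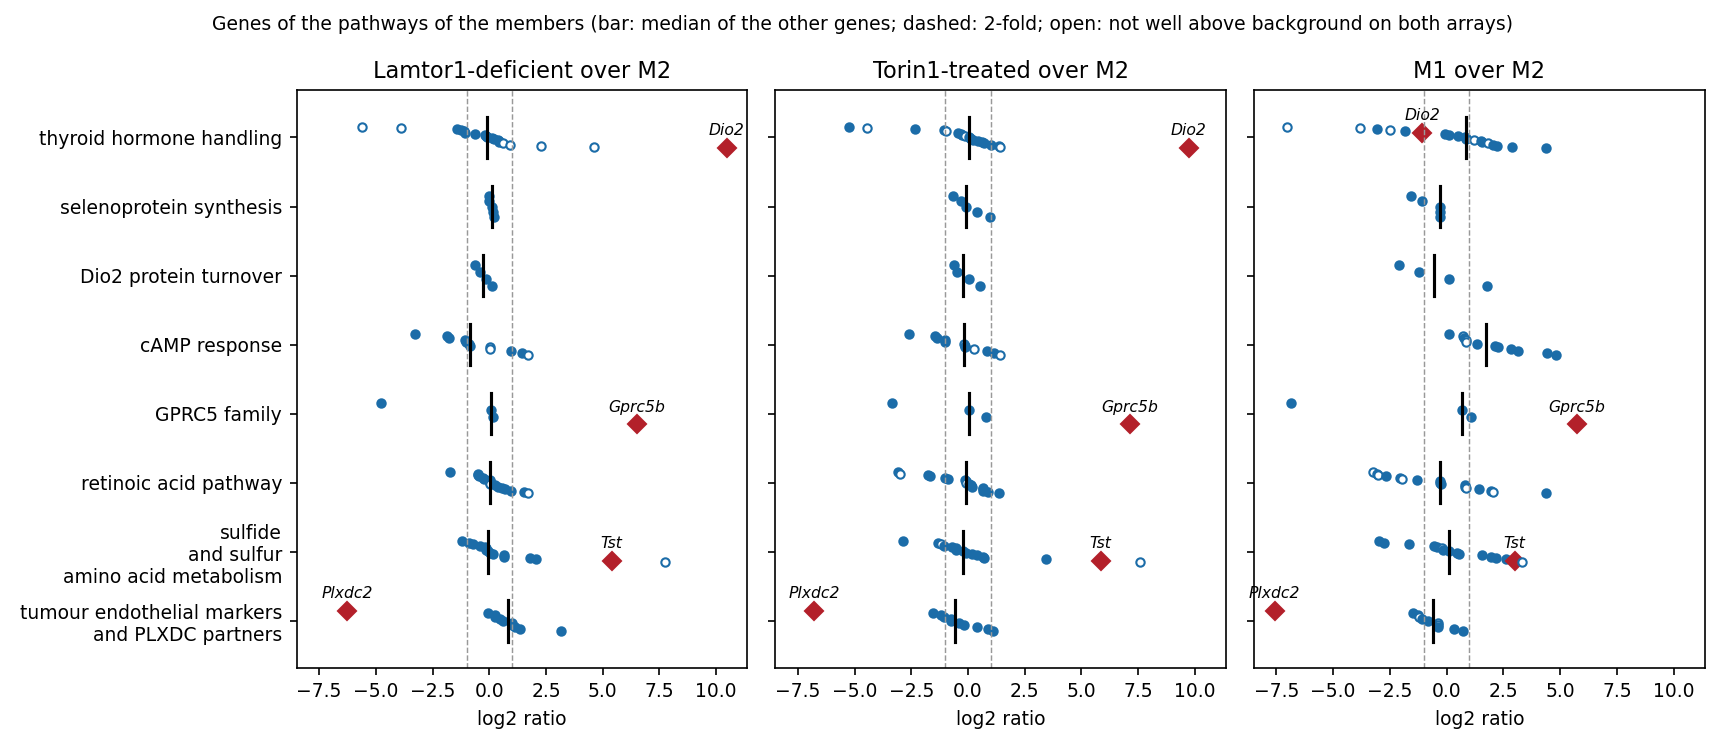
Log2 ratio to M2 of the genes of each list in Lamtor1-deficient, Torin1-treated and M1 cells, with the 4 genes as diamonds and the other genes as circles, open where a gene was not well above background on both arrays. Vertical bars are medians of the other genes and dashed lines mark 2-fold. The diamonds lie apart from the genes of their lists in both perturbed groups, for which the 4 genes were chosen, except that the open circle of Cdo1 lies beyond Tst.

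The genes next to the 4 genes on the chromosome were compared by the gene order of the RefSeq table, with 3 on each side. Of these 24 neighbours, 3 were 2-fold higher and 5 lower in Lamtor1-deficient cells, with a median log2 ratio of 0.07. In Torin1-treated cells 8 were higher and 6 lower (median 0.02), and in M1 cells 9 were higher and 5 lower (median 0.84). Of all genes 8.96% were higher and 8.34% lower in Lamtor1-deficient, 13.6% and 12.0% in Torin1-treated and 29.8% and 20.0% in M1 cells, and their medians were 0.04, −0.06 and 0.68. Of the 14 neighbours well above background on both arrays, 1 was higher and 3 were lower in Lamtor1-deficient cells, and 4 were higher and 4 lower in Torin1-treated cells.

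Mpst is the nearest neighbour of Tst, at 846 bases, and was the neighbour of any of the 4 genes that was well above background and 2-fold higher in Lamtor1-deficient cells. Csf2rb, a subunit of cytokine receptors on the other side of Tst, had log2 ratios of 0.84, 1.60 and −1.43 in Lamtor1-deficient, Torin1-treated and M1 cells. Iqck overlaps Gprc5b on the chromosome and was lower than in M2 in each other group, at −2.53, −2.16 and −1.57, opposite to Gprc5b. Nrxn3, a neurexin gene next to Dio2, had −2.92 and −3.22 in the perturbed groups and 1.20 in M1, opposite to Dio2 in every comparison. Next to Plxdc2, Arl5b had 0.33, 0.51 and 2.27, and Nebl was at least 6.90-fold lower in Lamtor1-deficient, at least 7.71-fold lower in Torin1-treated and at least 3.94-fold lower in M1 cells.

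**Figure D4:**
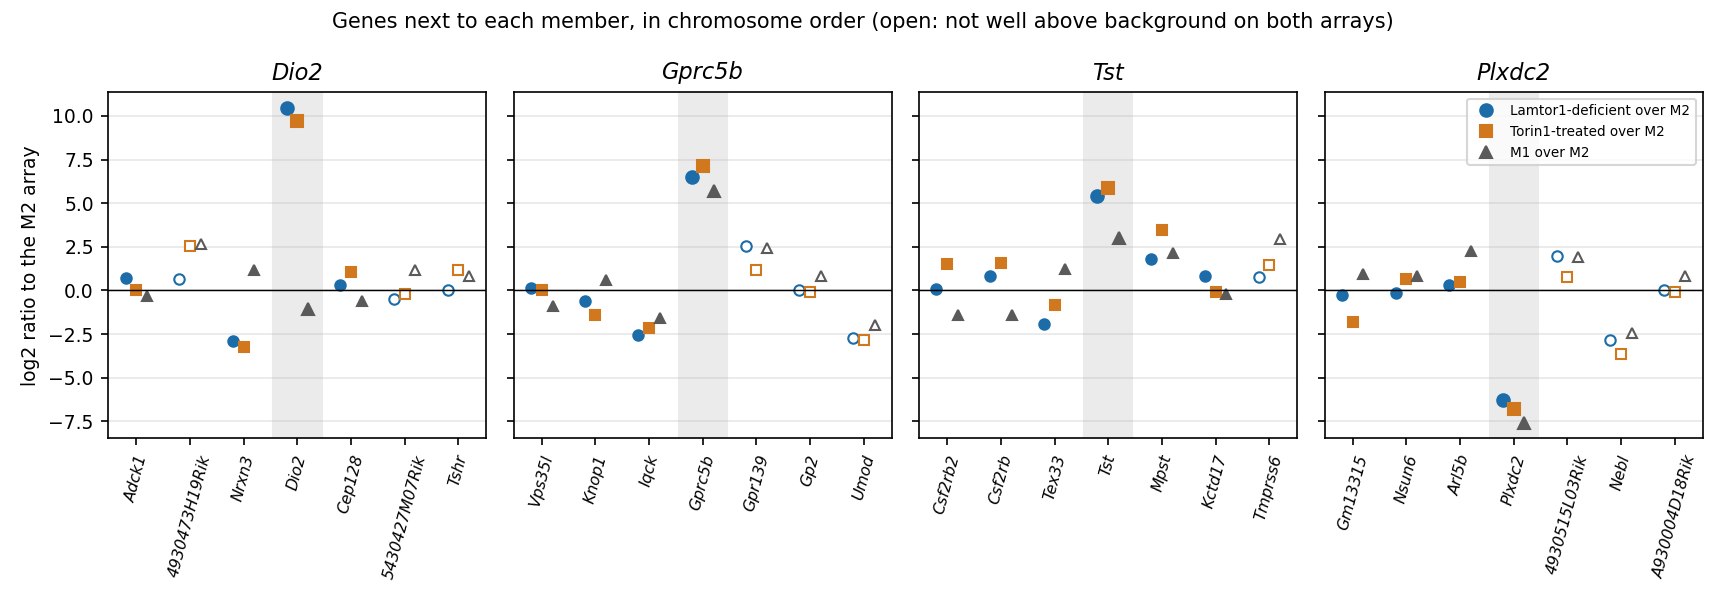
Log2 ratio to M2 of the 3 nearest genes on each side of Dio2, Gprc5b, Tst and Plxdc2 (grey band), in the order of the chromosome. Open symbols mark genes not well above background on both arrays. Mpst, beside Tst, is above 2-fold in all 3 comparisons, while Iqck beside Gprc5b and Nrxn3 beside Dio2 lie below M2 in both perturbed groups.

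The genes with the most similar profile were found among the 12400 genes that no array left near background. Likeness was the root mean square difference of the log2 normalized signals, each centred on its own mean, over 4 arrays. For Dio2 the nearest was Mgll, monoglyceride lipase, at 1.85 beside a median of 5.34 over all genes, followed by Rbp4, a retinol carrier, at 2.39, Cdkn1c at 2.52, Gm14461 at 2.69 and Tspan7 at 2.81. Mgll had log2 ratios of 6.78 in Lamtor1-deficient, 4.67 in Torin1-treated and −4.04 in M1 cells. This distance grows with the size of a gene's changes, and Dio2 was chosen for the largest. Its distance therefore does not tell whether the form of its profile was unusual.

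The other genes, with smaller changes, had nearest profiles at smaller distances. For Gprc5b they were C430002N11Rik at 0.51, Rapgef3, an exchange factor activated by cAMP, at 0.86, Tst itself at 0.97, Cd200 at 1.02 and Npy at 1.07. For Tst they were Rapgef3 at 0.52, Tnni2 at 0.59, Dusp13 at 0.78, Npy, the neuropeptide Y gene, at 0.87 and Rims3 at 0.96. For Plxdc2 they were Il4i1, an amino acid oxidase gene induced by IL-4, at 0.76, Lpl, lipoprotein lipase, at 0.76, Ear1, a ribonuclease gene, at 0.81, S100a9 at 0.83 and Sult1a1 at 0.86. Likeness over 4 arrays of 1 culture each describes these arrays only.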

How the data were processed

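RNA of 4 cultures was labelled with Cy3 and hybridized to 1-colour Agilent whole mouse genome arrays, 1 array for each condition, on 1 slide scanned together. The deposited files hold spot intensities, and the authors' processed signal is the intensity after background subtraction by Feature Extraction, not normalized between arrays. Its version is 10.7.3.1 per the file headers and 10.5.1.1 in the submitters' processing notes.

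Following the study's methods, signals below 1.0 were set to 1.0 and each array was divided by its 75th percentile over non-control probes. Spots flagged as outliers (170 to 226 an array) were left out and the spots of a probe were averaged. A gene was taken by its brightest probe, the one with the highest mean log2 signal over the 4 arrays, and named through the RefSeq table of GRCm38.p6, which 29477 probes matched. Positions of probes were read from the annotation in the scanner files, on mm9, and exons were not assigned. With 1 array per group, differences were set beside the technical SD and the scanner's error, and no test was run. Depth was read as signal over background, where 51.0% to 55.6% of probes were well above background and precision is limited by the 4 arrays. A probe well above background on 1 of the arrays compared gives a bound ("at least") against the higher of its own signal and the lowest signal well above background there. Counts of lists and their medians include probes not well above background.

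The 4 genes and the lists were chosen with earlier results of these data known. The text names the 4 genes with all probes, relatives and partners, list genes at least 2-fold apart, the 3 nearest genes on each side, the 5 nearest profiles and the genes next to them in the order of the choice. S100a9, Cdo1, Crym, Hr, Dio3, Nebl and others with a bound were named after their values were seen. Alternatives were a shift to the median, quantile normalization, the percentile over probes well above background, normexp with an offset of 50, outlier spots kept, a floor, the series table (at most 0.497% from the scanner values), the mean over probes, a 3-fold threshold and a filter on dim probes. Some genes that the rule names are not reported here. The procedure was tested on simulated data. Python 3.11.15 (pandas 2.3.3, NumPy 2.4.6, matplotlib 3.10.9) was used, and limma 3.58.1 in R 4.3.3 for the normexp alternative.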

Additional observations from a re-analysis of the deposited data

How the results depend on the processing

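No log2 ratio of the 4 genes to M2 changed sign under any alternative that was run, and 64 of 96 recomputed values moved by less than the technical SD. The values were stable in this sense with the percentile taken over probes well above background and with outlier spots kept. Part of the 64 could not have moved. The floor on dim signals left every value unchanged, since the signals of the 4 genes lay above it. The series table holds the same signals to within 0.497%, and the mean over probes changes nothing for Dio2 and Plxdc2, with 1 probe each. With arrays shifted to their median, the ratios of Torin1-treated and M1 over M2 were 9.48 and −1.89 for Dio2, 6.90 and 4.91 for Gprc5b, 5.60 and 2.17 for Tst, and −7.03 and −8.40 for Plxdc2. Quantile normalization gave 9.50 for Torin1-treated and −1.69 for M1 for Dio2, 6.35 for Lamtor1-deficient and 5.55 for M1 for Gprc5b, 5.27 for Lamtor1-deficient and 5.97 for Torin1-treated for Tst, and −6.61, −7.05 and −7.85 for Lamtor1-deficient, Torin1-treated and M1 for Plxdc2. In the order Lamtor1-deficient, Torin1-treated and M1, normexp correction gave 9.87, 9.11 and −0.16 for Dio2, 6.04, 6.66 and 5.12 for Gprc5b, and 5.13, 5.57 and 2.64 for Tst, and the mean over probes gave 5.71, 6.67 and 5.19 for Gprc5b and 5.21, 5.61 and 2.88 for Tst. The cause of these moves was not tested, apart from the rescaling itself. The shift to the median moved the median of all genes by −0.248 for Torin1-treated and −0.821 for M1 over M2, quantile normalization by −0.748 for M1, normexp by 0.256 for Torin1-treated and the floor by 0.166 for M1, so small positive M1 ratios changed sign under the shift to the median. Among genes past 2-fold, the share that was higher was 53.1% for Torin1-treated and 59.9% for M1, and 37.1% and 31.5% with the shift to the median and 44.7% and 42.8% with quantile normalization, and for Torin1-treated it was 43.5% with normexp and 45.2% with the floor. List counts were within 1.5 times the reported count in 418 of 480 recomputations. Of reported counts of 5 or more, thyroid genes lower in Lamtor1-deficient cells went from 6 to 3 (normexp) and 2 (3-fold), and in M1 those higher went from 8 to 4 (median shift) and 5 (quantile, 3-fold) and those lower from 5 to 3 (normexp). The cAMP genes lower in Lamtor1-deficient cells went from 5 to 3 (quantile, normexp, 3-fold), and in Torin1-treated cells from 5 to 3 (percentile over probes well above background, normexp, mean over probes) and 1 (3-fold). Retinoic acid genes lower in Torin1-treated cells went from 5 to 2 (normexp) and 3 (mean over probes), and in M1 from 7 to 4 (normexp). Tumour endothelial genes higher in Lamtor1-deficient cells went from 5 to 3 (quantile, percentile over probes well above background) and 1 (normexp, 3-fold). With the median shift, genes lower in M1 went from 2 to 5 for selenoprotein synthesis, from 3 to 7 for sulfide metabolism and from 4 to 8 for tumour endothelial markers. No paired analysis was possible because each group has 1 array. With 1 culture in each group, a difference between cultures and a difference between conditions cannot be told apart.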
